A study of Rattus norvegicus with 8 samples.

Results

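The miR-17-92 cluster and its paralogs miR-106a-363 and miR-106b-25 are groups of neighbouring miRNA genes that descend from a common ancestor. Each cluster is transcribed as a single precursor and cut into several mature miRNAs, short RNAs that guide repression of messenger RNAs mainly through their seed, bases 2 to 8. The clusters are known as targets of the transcription factors Myc and E2F, as promoters of cell cycle entry and survival, and as regulators of lymphocyte development. Known targets include Cdkn1a, a brake on the cell cycle, and Bcl2l11, a trigger of apoptosis. The 10 members described here, of 758 rat miRNAs on the array, were taken by name: rno-miR-17-5p, rno-miR-18a-5p, rno-miR-19a-3p, rno-miR-19b-3p, rno-miR-20a-5p and rno-miR-92a-3p of miR-17-92, rno-miR-20b-5p of miR-106a-363, and rno-miR-106b-5p, rno-miR-93-5p and rno-miR-25-3p of miR-106b-25. The prefix rno, for rat, is left out below where no confusion arises. The rule uses names and no measured value, but it was proposed with earlier results of these data known.

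The members were compared in prostatic urethral tissue of male SD (Sprague Dawley) rats, 10 to 12 months old, with 4 animals and 4 arrays in each group. Rats of the TULP group underwent a simulated transurethral laser prostatectomy, in which the urothelium of the prostatic urethra was vaporized with a thulium laser, and wound tissue was taken 5 days after surgery. The sham group had only the abdominal incision, so effects of the laser and of the passage of the endoscope through the bladder cannot be told apart. No transgene or other agent is named, and the tissue is a mixture of cell types. Groups rest on the sample titles, since the descriptions of the TULP samples name sham surgery although their titles, tissue and treatment fields name trauma.

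After quantile normalization, miR-20a-5p was higher in the TULP group by 1.08 on the log2 scale and was the 1 member that passed the test over all miRNAs, which 30.5% of the 151 tested miRNAs passed. The other tested members had differences between 0.09 and 1.01, none of which passed. miR-17-5p, miR-18a-5p and miR-19a-3p, which share the precursor of miR-20a-5p, stayed at or below the detection limit on nearly all arrays. The rise was relative to the other miRNAs: when arrays were scaled to spiked-in RNA, the difference of miR-20a-5p was 0.28 and did not pass.

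The mature sequences are shown because the members fall into 4 seed groups that cut across the clusters, and because close relatives differ by few bases. They were taken from RefSeq (GRCr8), which held all 10 members. The seed is in capitals. The group named after miR-17, with the seed AAAGUGC, has 5 members from all 3 clusters:
miR-17-5p: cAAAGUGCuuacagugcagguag
miR-20a-5p: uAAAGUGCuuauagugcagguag
miR-20b-5p: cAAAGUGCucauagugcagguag
miR-106b-5p: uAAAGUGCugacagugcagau
miR-93-5p: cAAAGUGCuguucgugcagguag

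miR-18a-5p is alone in its group, with a seed close to the one above:
miR-18a-5p: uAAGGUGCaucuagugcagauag

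The miR-19 group has 2 members, both from miR-17-92:
miR-19a-3p: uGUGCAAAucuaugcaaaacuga
miR-19b-3p: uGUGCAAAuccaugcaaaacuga

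The miR-25 and miR-92 group has a member in miR-17-92 and a member in miR-106b-25:
miR-92a-3p: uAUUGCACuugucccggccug
miR-25-3p: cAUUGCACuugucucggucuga

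The other array miRNAs with a member's seed, among the 685 with a mature sequence in RefSeq, were 3 of the last group, namely miR-32-5p, miR-363-3p and miR-92b-3p. None of these was detected on any array.

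In RefSeq, miR-18a-5p, miR-19a-3p and miR-20a-5p each come from 1 locus on chromosome 15 and miR-20b-5p from 1 locus on chromosome X. miR-17-5p, miR-19b-3p and miR-92a-3p each have the same mature sequence at 2 loci, on chromosomes 15 and X, so their signal cannot be told apart by cluster. The loci of miR-106b-5p, miR-93-5p and miR-25-3p, on chromosome 12, lie inside Mcm7, which encodes a subunit of the replicative helicase. The other loci lie inside no other listed gene. In the coordinates of the array files, which use the build rn4, an 18-base probe of miR-20a-5p lies at chr15:99854210-99854227. The files give probes of miR-93-5p at chr12:17608195-17608209 and of miR-25-3p at chr12:17608026-17608042, both on the minus strand.

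Each member was read by 2 probes of 15 to 21 bases, with 8 spots each. The probes pair with the 3′ part of the miRNA, from base 3 to 9 onward, and so mostly with bases outside the seed. They are shown for the members that are nearest in sequence, with the bases that do not pair with the nearest relative in capitals. A probe of miR-17-5p and one of miR-20b-5p differ from a match to miR-20a-5p by 1 base, and a probe of miR-20a-5p from a match to either of them by 1 base each:
miR-17-5p probe: ctacctgcactGtaag
miR-20a-5p probe: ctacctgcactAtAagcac
miR-20b-5p probe: ctacctgcactatGagcact

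A probe of miR-19a-3p differs by 1 base from a match to miR-19b-3p, and the reverse holds for a probe of miR-19b-3p:
miR-19a-3p probe: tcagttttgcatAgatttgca
miR-19b-3p probe: tcagttttgcatGgatttgc

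The probes of miR-92a-3p differed from miR-25-3p, and those of miR-106b-5p from miR-17-5p, by 2 bases. The probes of miR-18a-5p, miR-93-5p and miR-25-3p had at least 3 differences from any other member. How much a probe picks up of a relative that differs by 1 base was not tested.

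The array software calls a miRNA detected where a probe's total signal exceeds 3 times its error. By that call, 6 members were detected on all 8 arrays: miR-19b-3p, miR-20a-5p, miR-92a-3p, miR-106b-5p, miR-93-5p and miR-25-3p. miR-20b-5p was detected on 5 arrays, miR-17-5p on 1, and miR-18a-5p and miR-19a-3p on 0. Tests were run where 4 or more of the 8 arrays detected a miRNA, which was true of 151 miRNAs and left 7 members in and 3 out. Undetected here means below the detection limit of these probes, not absent.

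**Figure D1:**
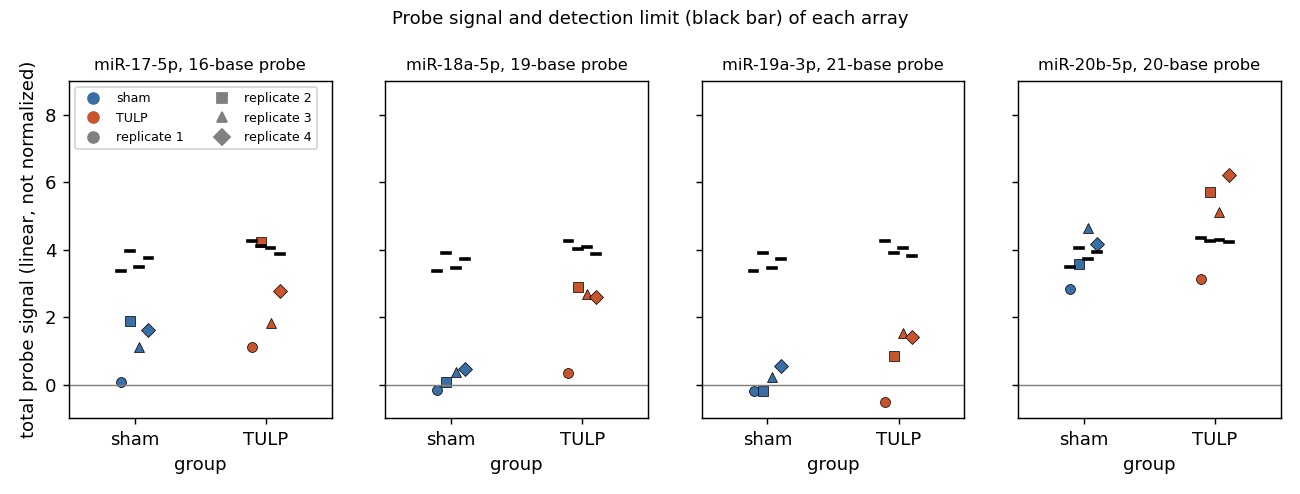
Total probe signal (linear, not normalized) of the brighter probe of miR-17-5p, miR-18a-5p, miR-19a-3p and miR-20b-5p on each array, with symbols for replicates, sham in blue, TULP in orange and the detection limit of each array as a black bar. miR-17-5p exceeds its limit on TULP replicate 2 only, miR-18a-5p and miR-19a-3p stay below it on all 8 arrays, and miR-20b-5p exceeds it on 5.

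Within miR-17-92, rno-miR-20a-5p, of the miR-17 seed group, had normalized log2 signals of 3.95, 4.54, 4.52 and 4.43 on sham replicates 1 to 4. On TULP replicates 1 to 4 the values were 4.90, 5.61, 5.68 and 5.61. Every TULP array lay above every sham array, and replicate 1 was the lowest of both groups. The means were 4.36 ± 0.28 and 5.45 ± 0.37 (SD, n = 4 each), and the difference was 1.08 (SE 0.22, 95% confidence interval 0.57 to 1.60, limma adjusted p = 0.0124). This is a fold of 2.12, so miR-20a-5p met the threshold for differential expression, an adjusted p under 0.05 with more than 2-fold change.

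The 2 probes of miR-20a-5p gave the same direction. Before any normalization, the total signal of the 19-base probe was 12.6, 20.3, 20.3 and 23.3 for sham and 19.5, 28.0, 27.1 and 29.6 for TULP. The 18-base probe gave 4.21, 6.86, 6.20 and 7.39 for sham and 7.13, 11.2, 10.2 and 9.09 for TULP. For each probe, only TULP replicate 1 fell within the range of the sham arrays. The differences of the log2 means were 0.46 for the 19-base and 0.62 for the 18-base probe, smaller than after normalization.

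rno-miR-19b-3p, of the miR-19 seed group, had normalized log2 signals of 3.79, 4.43, 4.74 and 4.20 on the sham arrays. The TULP arrays read 4.35, 4.96, 5.32 and 5.02. The groups overlapped, and TULP replicate 1 lay below 2 sham arrays. The difference was 0.62 (SE 0.27, limma adjusted p = 0.116). Its 20-base probe carried all of the signal, since the 19-base probe was below the limit on each array.

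rno-miR-92a-3p, the last miRNA of the cluster, had normalized log2 signals of 5.61, 5.82, 5.10 and 5.74 for sham and 6.09, 5.82, 6.30 and 6.30 for TULP. The groups met at 5.82, the value of replicate 2 in both. The difference was 0.56 (SE 0.19, limma adjusted p = 0.0644). It passed when arrays were scaled to their 75th percentile (0.55, limma adjusted p = 0.0408). It also passed when each miRNA on the array was cut to its brightest probe (0.65, limma adjusted p = 0.0129). With the stored totals it was 0.24 (limma adjusted p = 0.385), and without normalization 0.03. The stored totals of miR-92a-3p were up to 1.22 times its detected signal.

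The remaining members of miR-17-92 had no difference that could be tested. The 16-base probe of miR-17-5p read 0.0872, 1.89, 1.12 and 1.61 for sham and 1.098, 4.24, 1.83 and 2.79 for TULP, in linear signal units. The value of 4.24, on TULP replicate 2, was just above the limit of 4.11 there. This probe differs from a match to miR-20a-5p by 1 base, as printed above, and miR-20a-5p was detected on every array.

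The 19-base probe of miR-18a-5p, an miRNA with its own seed, read -0.16, 0.0743, 0.38 and 0.45 on the sham arrays. On the TULP arrays it read 0.35, 2.90, 2.68 and 2.60. TULP replicates 2, 3 and 4 stood above the other arrays, but all 8 values lay below the detection limits of 3.37 to 4.24. The 21-base probe of miR-19a-3p read -0.51 to 1.51, also below the limit throughout.

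In miR-106a-363, rno-miR-20b-5p, another carrier of the miR-17 seed, was detected on sham replicates 3 and 4 and on TULP replicates 2, 3 and 4. Its 20-base probe read 2.82, 3.57, 4.65 and 4.16 for sham and 3.13, 5.71, 5.11 and 6.21 for TULP, not normalized. The 3 TULP arrays that detected it were above every sham array, while TULP replicate 1 was below 3 of them. Normalized values under 0.96 (log2), the typical lowest level of a detected miRNA, were set to that floor. The normalized log2 values were 0.96, 0.96, 2.11 and 0.96 for sham and 0.96, 2.76, 2.47 and 2.86 for TULP. Sham replicate 4 was thus at the floor although the software called the miRNA detected there.

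The difference of miR-20b-5p was 1.01 (SE 0.48, 95% confidence interval -0.11 to 2.13, limma adjusted p = 0.153). Without TULP replicate 1 it was 1.37 (limma adjusted p = 0.0236). Because 3 sham arrays and 1 TULP array sit at the floor, its size depends on the floor. With a lower floor it was 1.37, and with a higher floor 0.51. It was 2.79 on the deposited table, 1.86 with quantile normalization of log2 values, and 0.02 with background-corrected spot means. None of these passed. The spot means carry an added offset of 50, above the mean spot signal of 5.17 for sham and 6.75 for TULP, which draws log2 differences toward 0.

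In miR-106b-25, rno-miR-93-5p also carries the miR-17 seed. Its normalized log2 signals were 1.37, 2.56, 2.50 and 2.76 for sham and 3.24, 3.30, 2.88 and 2.93 for TULP. The groups did not overlap, and sham replicate 1 was far below the other sham arrays. The difference was 0.79 (SE 0.31, limma adjusted p = 0.0874). Without sham replicate 1 it was 0.49, and with arrays scaled to the 75th percentile it was 0.88 and passed (limma adjusted p = 0.00279). Its signal came from the 16-base probe alone, which read 3.90 to 8.62 before normalization, against detection limits of 3.60 to 4.94. With the stored totals the difference was 0.36, but these were 8.01 to 11.8 times the detected signal. They stayed close to the stored totals of miR-92a-3p, with a log2 ratio of miR-92a-3p to miR-93-5p of -0.19 to -0.13. The value of 0.36 is thus no separate reading of miR-93-5p. With background-corrected spot means the difference was 0.03. That setting adds an offset of 50, above the mean spot signal of 5.63 for sham and 6.95 for TULP, which draws log2 differences toward 0.

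rno-miR-106b-5p, with the same seed and from the same precursor, had normalized log2 signals of 3.62, 4.47, 4.61 and 4.28 on the sham arrays. The TULP arrays read 4.28, 4.41, 4.28 and 4.35. All TULP values lay within the sham range, and the difference was 0.09 (SE 0.21, 95% confidence interval -0.41 to 0.58, limma adjusted p = 0.852). Its 16-base probe crossed the detection limit on 3 arrays, sham replicates 2, 3 and 4, and so added to the summed signal in the sham group alone. With each miRNA on the array cut to its brightest probe, here the 17-base probe, the difference was 0.25 (limma adjusted p = 0.314). Before normalization, the 17-base probe differed by -0.18.

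rno-miR-25-3p, of the miR-92 seed group, had normalized log2 signals of 4.78, 5.10, 4.96 and 5.26 for sham and 5.46, 5.09, 5.09 and 5.09 for TULP. The groups overlapped. TULP replicate 1 was the highest array for this member, although it was the lowest TULP array for miR-20a-5p, miR-19b-3p and miR-20b-5p. The difference was 0.15 (SE 0.14, 95% confidence interval -0.18 to 0.48, limma adjusted p = 0.514).

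**Figure D2:**
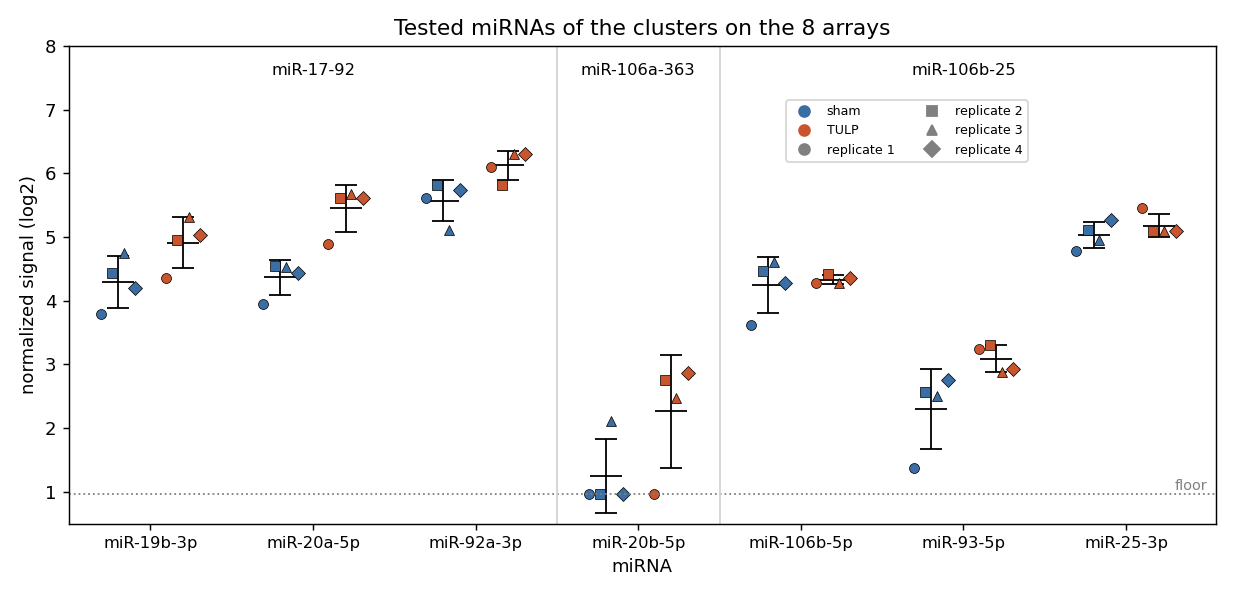
Normalized signal (log2) of the 7 tested members on the 4 sham (blue) and 4 TULP (orange) arrays, grouped by cluster, with symbols for replicates, bars for mean ± SD and a dotted line at the floor. The TULP arrays of miR-20a-5p and miR-93-5p lie above all sham arrays, and those of miR-106b-5p lie within the sham range.

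Counted over the tested members, 1 of 7 passed the adjusted p, where 30.5% of all tested miRNAs did (13.9% as higher). The same member was also the only one called with more than 2-fold change, against 9.27% of all tested (5.3% as higher). Groups did not overlap for 2 of 7, miR-20a-5p and miR-93-5p, both higher in TULP, against 29.1% of all tested in either direction and 14.6% in that direction. The differences of all 7 were above 0, against 47% of all tested (on the spike-in scale described next, 4 of the 7 were below 0), and their median was 0.62, against -0.02 over all tested miRNAs. An unadjusted p under 0.05 was found for 4 of 7 members and for 65 of 151 miRNAs. By their number of calls, the members therefore did not exceed the background of this comparison.

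By cluster, the differences of the tested members ran from 0.56 to 1.08 in miR-17-92 (3 of 6 tested) and from 0.09 to 0.79 in miR-106b-25 (3 of 3 tested). The medians were 0.62 and 0.15. miR-19b-3p and miR-92a-3p are counted in miR-17-92, although their signal cannot be told apart from that of their loci on chromosome X. By seed, the 4 tested carriers of AAAGUGC had a median of 0.90 with a range of 0.09 to 1.08. Members with the same seed thus spanned the whole range of differences among the 7, with miR-20a-5p and miR-106b-5p at its ends. miR-92a-3p and miR-25-3p, with the seed AUUGCAC, had differences of 0.56 and 0.15.

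The scale of the arrays changed the size and, for some members, the sign of the difference. The summed signal of detected miRNAs ran from 21075 to 37357 for sham and from 16787 to 19464 for TULP, and quantile normalization removes this gap. The labelling spike-ins are synthetic RNAs added at a constant amount to each sample, and scaling to them moved the median of all tested miRNAs to -0.78. On that scale, miR-20a-5p differed by 0.28 (SE 0.24, limma adjusted p = 0.338), miR-20b-5p by 0.43 and miR-93-5p by 0.13. miR-19b-3p (-0.18), miR-92a-3p (-0.20), miR-106b-5p (-0.62) and miR-25-3p (-0.44) turned to below 0, and none of the 7 passed.

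Scaling by 1 factor per array moves all miRNAs of that array alike, so it leaves their differences from each other nearly as they were. Set against the median of -0.78, the difference on the spike-in scale was 1.06 for miR-20a-5p, 0.61 for miR-19b-3p, 0.59 for miR-92a-3p, 1.22 for miR-20b-5p, 0.91 for miR-93-5p, 0.34 for miR-25-3p and 0.16 for miR-106b-5p. These values restate the comparison with the other miRNAs and carry no test of their own. In whole tissue, fewer cells of a type and less of an miRNA per cell cannot be told apart.

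**Figure D3:**
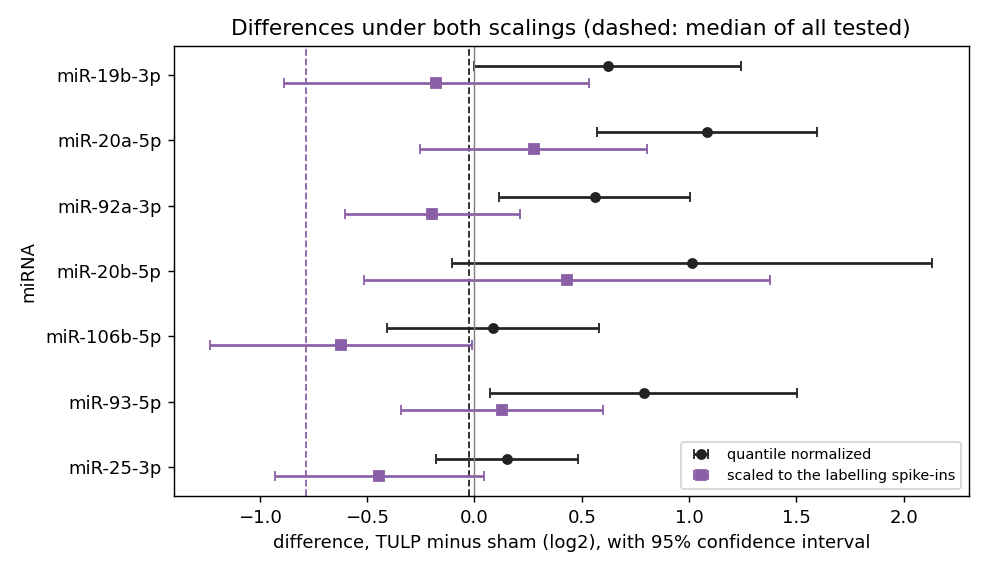
Difference between groups (TULP minus sham, log2) of the 7 tested members with 95% confidence intervals, quantile normalized (black circles) and scaled to the labelling spike-ins (purple squares), with dashed lines at the median of all tested miRNAs, -0.02 and -0.78. On the quantile scale all 7 points lie above 0, and on the spike-in scale 4 lie below it. The dashed lines show how far the scaling moves the tested miRNAs as a whole.

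The ratio of 2 members within an array does not depend on the scale of that array. In miR-106b-25, the log2 ratio of miR-93-5p to miR-25-3p was -2.74, -2.62, -2.61 and -2.82 for sham and -2.44, -1.83, -2.21 and -2.02 for TULP. The groups did not overlap, and the ratio was higher in TULP by 0.57 (two-sided exact permutation test, p = 0.0286, which no labelling of 8 arrays can go below). Adjusted over the 4 ratios to miR-92a-3p or miR-25-3p that could be formed within clusters, p was 0.114. The difference was 0.54 with the stored totals, where the ratio of miR-92a-3p to miR-25-3p differed by 0.51. As stored totals of miR-93-5p followed those of miR-92a-3p, the 0.54 is no separate reading of miR-93-5p. It was 0.13 with background-corrected spot means, where the groups overlapped and the offset of 50 draws differences toward 0.

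The other 3 of these ratios overlapped between the groups. The ratio of miR-20a-5p to miR-92a-3p differed by 0.47 (exact permutation p = 0.114), that of miR-19b-3p to miR-92a-3p by 0.02 (p = 1), and that of miR-106b-5p to miR-25-3p by -0.18 (p = 0.571). Adjusted p-values were 0.229, 1 and 0.762.

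After these values were seen, all 15 pairs of the 6 members detected on every array were examined. In 3 pairs the groups did not overlap, each at the smallest exact p of 0.0286, and 0 passed after adjustment over the 15, with a lowest adjusted p of 0.143. The log2 ratio of miR-20a-5p to miR-106b-5p, which share a seed but not a precursor, was 0.39, 0.05, -0.09 and 0.28 for sham and 0.84, 1.09, 1.20 and 1.09 for TULP. This ratio was higher in TULP by 0.90, and by 0.65 with the brightest probe of each alone, in both cases without overlap. The ratio of miR-106b-5p to miR-93-5p was lower in TULP by 0.75, but with the brightest probes alone the groups overlapped and the difference was -0.54. The third pair was miR-93-5p and miR-25-3p.

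**Figure D4:**
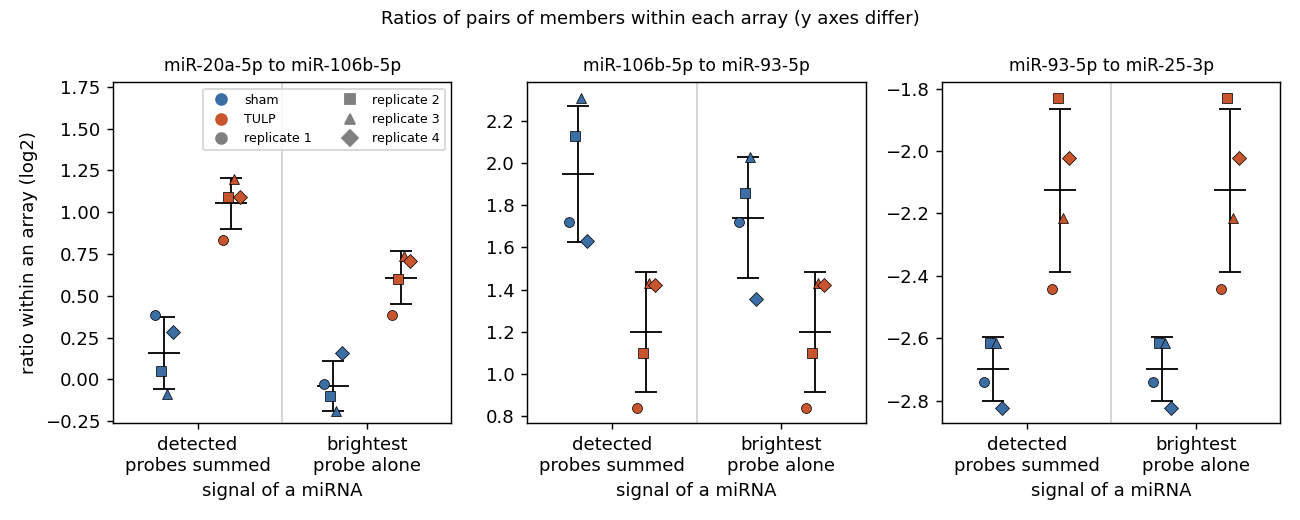
Log2 ratio of pairs of members within each array, from the sum of detected probes (left of each panel) and from the brightest probe of each miRNA alone (right), with symbols for replicates, sham in blue, TULP in orange and bars for mean ± SD. The groups separate for miR-20a-5p to miR-106b-5p and miR-93-5p to miR-25-3p in both forms, and for miR-106b-5p to miR-93-5p in the summed form alone.

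The arrays lay on 1 slide in 2 rows, of which the first held TULP replicates 1, 2 and 3 beside sham replicate 4. Within the rows, the difference of miR-20a-5p was 0.96 and 1.27, and with the row as a block it was 1.11 (limma adjusted p = 0.0363). The signs of the other members held in both rows, except for miR-25-3p, with -0.05 and 0.14. Each row has 1 array of the smaller group, so these values carry no test.

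Some markers of blood and muscle cells differed between the groups after quantile normalization. Over all tested miRNAs, 13.9% passed as higher and 16.6% as lower. Of 8 leukocyte miRNAs, 7 were tested and 3 rose, miR-223-3p, miR-142-3p and miR-146b-5p. The other 4 did not pass: miR-155-5p differed by 0.89, miR-146a-5p by 0.39, miR-342-3p by 0.13 and miR-150-5p by -0.59, the last without overlap of the groups (limma adjusted p = 0.0737). The summed leukocyte level was 6.43 to 6.97 for sham and 7.56 to 8.14 for TULP, log2, with miR-142-5p undetected throughout. Of 5 striated muscle miRNAs, 3 fell, miR-1-3p, miR-133a-3p and miR-133b-3p. Of the others, miR-206-3p differed by 0.25 (limma adjusted p = 0.795) and miR-499-5p was undetected throughout. miR-206-3p read 9.29 to 10.10 for sham and 8.71, 10.56, 10.32 and 10.69 for TULP, so replicate 1 lay below and the other TULP arrays above every sham array. The summed striated muscle level was 11.98 to 12.47 for sham and 11.37 to 12.18 for TULP. Of 3 erythroid miRNAs, 1 fell, miR-486. miR-451-5p differed by -0.66 (limma adjusted p = 0.597), and miR-144-3p was undetected throughout. The summed erythroid level was 5.96 to 6.63 for sham against 5.11 to 6.32 for TULP. The summed striated muscle and erythroid levels thus overlapped between the groups.

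The epithelial, smooth muscle and endothelial lists, which mark the labelled tissue, were detected in both groups, and none of their miRNAs passed. The median difference of the tested epithelial miRNAs was -0.68. Of these, miR-375-3p was detected on 4 sham arrays and on TULP replicate 1 alone (-2.03, limma adjusted p = 0.0675). miR-200c-3p read 4.22 to 4.69 for sham and 4.71, 2.86, 2.56 and 2.00 for TULP (-1.46, limma adjusted p = 0.0753). TULP replicate 1, which held both near the sham level, was also the lowest TULP array for miR-20a-5p. It was not near sham on other lists. Its summed leukocyte level (7.56) lay above every sham array, and its summed striated muscle level (11.37) below every sham array. A link between these levels and miR-20a-5p was not tested. The other tested epithelial miRNAs were miR-200a-3p (-0.71), miR-205 (-0.68), miR-141-3p (-0.57), miR-200b-3p (0.0006) and miR-429 (0.01). For miR-200b-3p and miR-429, TULP replicate 1 lay above every sham array, so the small mean differences hide a spread between the TULP arrays. On TULP replicates 1 to 4, miR-200b-3p read 9.29, 8.08, 8.08 and 8.01, the last 3 at or below the lowest sham array. On the same arrays miR-429 read 6.91, 6.42, 6.09 and 5.82, with replicates 3 and 4 below every sham array. miR-203a-3p was detected on TULP replicate 2 alone and was not tested. Of the remaining lists, miR-126a-5p, an endothelial miRNA, was undetected throughout. Their summed levels were 8.93 to 9.40 against 8.60 to 9.87, 9.34 to 9.86 against 9.31 to 10.36, and 6.85 to 7.25 against 6.85 to 7.10. The part of any cell type in the rise of miR-20a-5p was not tested.

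The mean log2 level of the 7 tested members was 3.44, 3.98, 4.08 and 3.95 for sham and 4.18, 4.56, 4.57 and 4.59 for TULP. The miRNAs outside the clusters whose levels followed this mean most closely over the 8 arrays were miR-1949 (Pearson r = 0.957), miR-142-3p (0.930) and miR-146b-5p (0.921). The latter 2 are on the leukocyte list. These correlations include the difference between the groups and describe the 8 arrays only. miR-1949 was higher in TULP by 0.94 (limma adjusted p = 0.0331), miR-142-3p by 2.01 and miR-146b-5p by 2.90.

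Among the members themselves, miR-20a-5p followed miR-19b-3p most closely, with r = 0.906 over the 8 arrays, and miR-25-3p least, with r = 0.267. The opposite strands and other relatives of the members gave no further values. All 17 listed, such as miR-17-1-3p, miR-20a-3p, miR-93-3p and miR-363-3p, were on the array and 0 were detected on any array.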

How the data were processed

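RNA of 8 animals was hybridized with 1 dye. The deposited scanner files hold background-subtracted intensity values, not normalized between arrays, made by the authors with Agilent Feature Extraction 10.7.1.1. The authors also deposited a table of quantile normalized log2 values for 780 features, used as an alternative, with a median of -3.32 in each column, no centring, and higher values for more signal. Each array held 12128 spots, with 0 saturated, and detected 146 to 156 miRNAs in the sham and 136 to 151 in the TULP group.

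The signal of a miRNA was rebuilt as the sum of probes above 3 times their error (0.1 if none). This was done because stored totals exceeded the detected probes of some miRNAs and matched them for others, such as miR-20a-5p. They were 8.31 to 14.0 times the detected signal for miR-25-3p, 8.01 to 11.8 times for miR-93-5p and 6.69 to 8.37 times for miR-20b-5p. For miR-92a-3p they were up to 1.22 times the detected signal. Rebuilt signals were quantile normalized over 758 miRNAs, floored at 1.94 and log2 transformed. Differences were fitted with limma 3.58.1 (R 4.3.3) on the 151 miRNAs detected on at least 4 arrays, Benjamini-Hochberg adjusted over these. The procedure was run on simulated normal values with a common SD and no floor. That run does not cover values at the floor or values made equal by normalization. Ratios used exact permutation over 70 labellings. The number of arrays limits precision. Named were all members, the relatives and marker lists, and the 3 miRNAs most correlated with the member mean. The members and lists were chosen with earlier results of these data known.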

Additional observations from a re-analysis of the deposited data

Results flagged for a closer look

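In 4 of 34 groups of 4 arrays examined, the highest or lowest array lay apart from the others by more than Dixon's 95% critical share of the range, where chance gives about 5% of groups, or 1.70. For miR-20a-5p, TULP replicate 1 lay below the other TULP arrays, at a normalized log2 value of 4.90. For miR-25-3p, the same array lay above the others, at 5.46. The other 3 TULP arrays held miR-25-3p at the same rank, so quantile normalization gave them equal values and made the gap the whole range. For miR-20b-5p, sham replicate 3 had 2.11 while the other sham arrays were at the floor. The summed level of the striated muscle list was lowest on sham replicate 2, at 11.98.

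miR-17-5p, which was not tested, was detected on TULP replicate 2 with a signal of 4.24 and on no sham array. Its probe differs by 1 base from a match to miR-20a-5p, and the part of that miRNA in this signal was not tested.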

How the results depend on the processing

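miR-20a-5p stayed above 0 in each of 23 alternatives (0.28 to 1.23) and passed in 20 of them. The exceptions were the spike-in scale (0.28, limma adjusted p = 0.338), no normalization (0.51, adjusted p = 0.131) and testing without a filter, where more miRNAs enter the adjustment (1.08, adjusted p = 0.104). Leaving out each array in turn gave 0.97 to 1.23. It passed with more than 2-fold change in 17 alternatives.

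The number of members that passed was 1, and it was the same in 15 of 23 alternatives. It was 0 on the spike-in scale, without normalization and without the filter. It was 2 with a floor of 2 times the main (with miR-93-5p) and with the brightest probe of each miRNA alone (with miR-92a-3p), an alternative chosen after seeing the data. It was 3 with scaling to the 75th percentile (with miR-92a-3p and miR-93-5p). Leaving out each array gave 1 to 3, and the 3 came without TULP replicate 1, with miR-19b-3p (0.78, adjusted p = 0.0404) and miR-20b-5p (1.37).

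On the spike-in scale, miR-19b-3p (-0.18), miR-92a-3p (-0.20), miR-106b-5p (-0.62) and miR-25-3p (-0.44) turned below 0. Without normalization, miR-106b-5p (-0.39) and miR-25-3p (-0.21) did. miR-106b-5p was also below 0 with the stored totals (-0.12) and without sham replicate 1 (-0.12), and leaving out each array gave it -0.12 to 0.20. The log2 ratio of miR-106b-5p to miR-25-3p turned to 0.075 with the stored totals, 0.020 with normexp spot means and 0.029 with the brightest probes. The stored totals of miR-25-3p were 8.31 to 14.0 times its detected signal. The brightest-probe setting leaves out the 16-base probe of miR-106b-5p, which was counted on sham replicates 2, 3 and 4 alone. The cause of these changes of sign was not tested.

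With the replicate number as a block, 2 members passed, miR-20a-5p (1.08, adjusted p = 0.0137) and miR-19b-3p (0.62, adjusted p = 0.0248). The numbers did not pair the arrays: correlations of same-numbered deviations were 0.13, -0.10, 0.27 and -0.10, and only replicates 1 and 3 correlated best with their own number. The authors' methods name a t-test with p under 0.05 and more than 2-fold change, and no adjustment. Here that t-test was run on the deposited table with Benjamini-Hochberg adjustment, which is a stricter cut. At an adjusted p under 0.05, miR-20a-5p alone among the members passed (1.04, t-test adjusted p = 0.0222). Signal over background limits miR-17-5p, miR-18a-5p, miR-19a-3p, miR-20b-5p and miR-93-5p, whose probes lie near or under the detection limit.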
